A study of Elaeis guineensis with 6 samples.

Results

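IAA1, AHP1 and GSK are 3 genes of an oil palm (Elaeis guineensis) expression table, grouped here as hormone signalling genes by their symbols. They were taken by these identifiers, with earlier results of these data known. Each has 1 record among the 32099 gene records of the table, and all 3 passed the filter on low values that kept 18728 records for the tests. The values are FPKM, fragments scaled for the length of the gene and for the mapped fragments of the library, in 6 RNA-seq libraries of young inflorescences. The inflorescences came from leaf axils -27 and -20 (here the early leaf axils) and from leaf axil +5, with 1 library for each treatment and leaf axil. The treatments were control (no treatment) and stress, in which all leaves but the unopened central one were removed. Both trees were 15 years old and were felled 45 days after the treatment. Each treatment is 1 tree, so that treatment and tree cannot be told apart, and the libraries of a treatment are different leaf axils and not repeats of one sample. P-values therefore measure only the spread between these libraries.

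The 3 symbols name gene families tied to 3 hormone pathways, whose workings are best known from Arabidopsis. The roles of the 3 genes are read from these symbols alone. Which subgroup of kinases GSK belongs to is not known, so its place in the brassinosteroid pathway is open. IAA genes encode Aux/IAA proteins, short-lived repressors that bind auxin response factors and are degraded when auxin is perceived, and many of these genes are themselves switched on by auxin. AHP genes encode histidine phosphotransfer proteins, which carry the phosphate signal from the cytokinin receptors in the membrane to the response regulators in the nucleus. GSK stands for the glycogen synthase kinase 3 or SHAGGY-like kinases, some of which, such as BIN2, hold back the transcription factors of the brassinosteroid pathway until the hormone inactivates the kinase. Auxin and cytokinin set where flower primordia arise and how large the meristem of an inflorescence stays.

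Among the series as a whole, the control library at leaf axil +5 stood apart, at a distance (1 minus Pearson's r over tested records) of at least 0.129 from every other library, against 0.0241 and 0.0244 between the early leaf axils of a tree. Sequencing depth relative to the control library at -27, read from low FPKM values, ranged from 0.949 to 1.19. Of 13 floral and meristem symbols listed for a check of the tissue, 5 were in the table. Their summed FPKM was between 492 and 857 in control and between 923 and 1081 under stress, most of it from the meristem gene KNOX1. The floral genes did not share this direction. GLO2 was 3.61, 4.86 and 7.83 in control at -27, -20 and +5, and lower under stress (2.15, 0.844 and 3.51). SQUA1 was of mixed sign, with 5.59, 6.78 and 124 in control and 4.10, 8.43 and 150 under stress. AG2 was listed at 0 in all 6 libraries and DEF1 in 5 of them. Of 9 photosynthesis symbols 4 were in the table, all encoded in the chloroplast, and their summed FPKM was between 1.09 and 1.22 in control and between 0.0835 and 0.303 under stress. None of these 4 records exceeded an FPKM of 0.61 in any library, under the FPKM of 1 used in the filter. Their sum is thus near the floor. Both sums differed between the treatments in the direction given, and their part in the results below was not tested.

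IAA1, the auxin gene, was lower under stress than in control at all 3 leaf axils, and most so in the early inflorescences. Its FPKM in control was 136 at leaf axil -27, 129 at -20 and 90.1 at +5. Under stress it was 52.4, 55.4 and 62.0 in the same order. The highest stress library lay below the lowest control library, so the groups did not overlap, as for 18.2% of tested records in this direction. The ratio of stress to control was 0.387 at -27, 0.428 at -20 and 0.687 at +5.

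**Figure D1:**
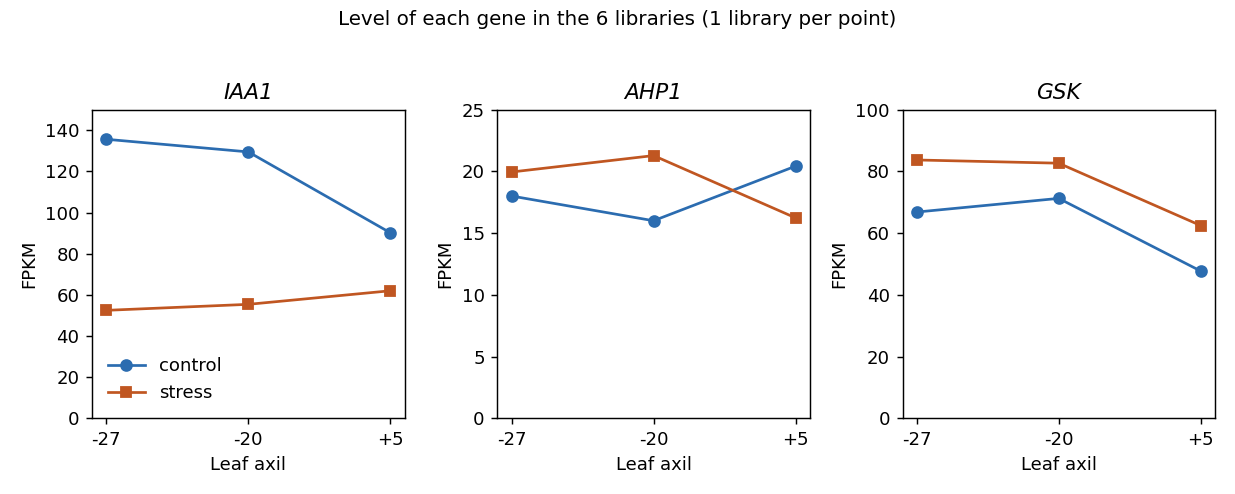
FPKM of IAA1, AHP1 and GSK (panels, each with its own vertical axis from 0) by leaf axil, with circles for control and squares for stress, each point 1 library. IAA1 runs from 136 to 90.1 in control and from 52.4 to 62.0 under stress, the lines of AHP1 cross between -20 and +5, and GSK is higher under stress at every leaf axil and lower at +5 in both trees.

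On the log2(FPKM + 1) scale used for all differences from here on, the difference of IAA1 between the stress and the control library was -1.35 at leaf axil -27, -1.21 at -20 and -0.53 at +5. Records at least 2-fold lower under stress made up 4.07% of those tested at -27, 4.89% at -20 and 10.3% at +5. IAA1 was among them at both early leaf axils and not at +5. A lower value than that of IAA1 was found for 1.94% of tested records at -27, 3.03% at -20 and 25.05% at +5. With 1 library against 1, these values have no test. In whole tissue, fewer cells that express a gene and less of its RNA per cell cannot be told apart.

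**Figure D2:**
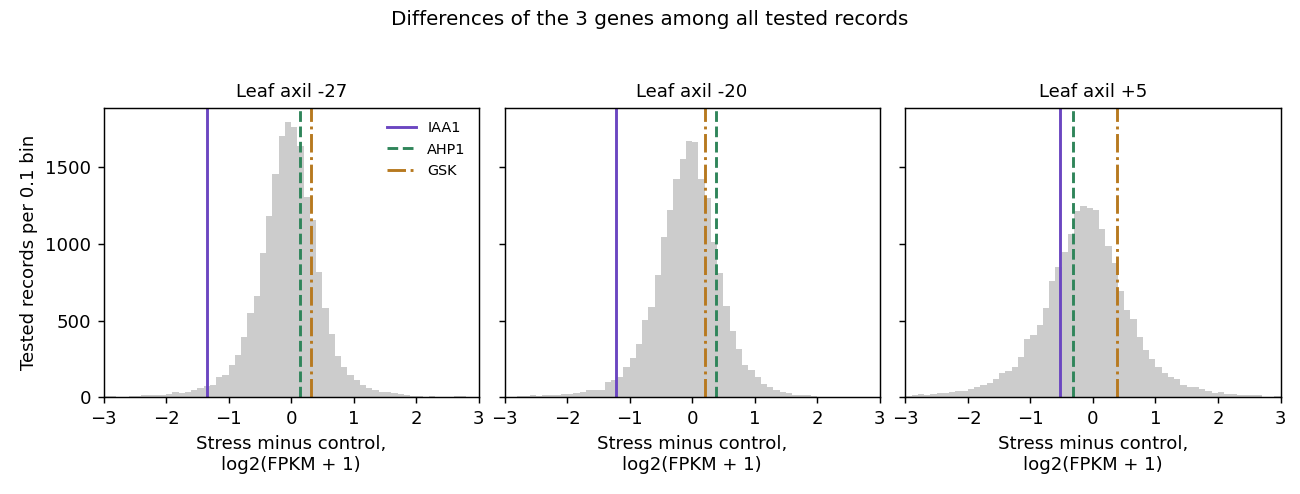
Stress minus control on the log2(FPKM + 1) scale at each leaf axil (panels), as counts of tested records in bins of 0.1 (grey, drawn from -3 to 3), with lines for IAA1 (solid), AHP1 (dashed) and GSK (dash-dotted). IAA1 lies in the lower tail at -27 (-1.35) and -20 (-1.21) and within the bulk of records at +5 (-0.53), while AHP1 and GSK lie within the bulk at all 3 leaf axils.

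Over the 3 leaf axils, the mean FPKM of IAA1 was 118 ± 24.7 in control and 56.6 ± 4.87 under stress (SD, n = 3 leaf axils each). The log2 fold change was -1.03 (standard error 0.20, 95% interval -1.51 to -0.55) with an adjusted p of 0.0459 from limma with Benjamini-Hochberg adjustment over all tested records. This missed the threshold of the study's methods, an adjusted p under 0.01 with at least a 2-fold change, which 0.529% of tested records passed. At an adjusted p under 0.05 with the same fold, 1.61% of tested records were lower under stress, IAA1 among them. IAA1 was no longer among them with the leaf axils paired in a replicate block (adjusted p 0.0538), with no filter on low values (0.102), with quantile normalization (0.0875) or with centring on library medians (0.0716). An exact permutation test of the 3 control against the 3 stress libraries gave p = 0.1 (2-sided), the smallest that this design allows. With 1 library left out at a time, the log2 fold change of IAA1 stayed between -1.22 and -0.92. Its adjusted p from limma was between 0.0155 without the control library at +5 and 0.194 without the stress library at -20. Of these fits, only that without the control library at +5 gave an adjusted p under 0.05.

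The level of IAA1 along the leaf axils had opposite directions in the control and the defoliated tree. In the control tree, leaf axil +5 had 0.68 times the mean FPKM of the early leaf axils, and in the defoliated tree 1.15 times. The difference between stress and control was smaller at +5 than at the early leaf axils by 0.75 on the log2 scale (standard error 0.19, 95% interval 0.31 to 1.19). Its adjusted p from limma was 0.0659, which missed the threshold that 0.491% of tested records passed in this test. That test has 2 residual degrees of freedom and 1 library per treatment at +5. Its standard error and interval rest on the spread between leaf axils -27 and -20 of a tree. That spread is of IAA1 and, since limma moderates it, also of all other tested records. The spread at +5 was not measured, and the test cannot be run without the control library at +5. With quantile normalization, the stress minus control difference of IAA1 at +5 shrank to -0.20.

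When the trees were combined, IAA1 differed little between +5 and the early leaf axils. With the treatment as covariate, the log2 fold change of IAA1 between +5 and the early leaf axils was -0.18 (standard error 0.19, 95% interval -0.63 to 0.27, adjusted p = 0.612 from limma). It was 0.20 without the control library at +5 and -0.55 without the stress library at +5, so its direction rested on these libraries. Between leaf axils -20 and -27, the value of IAA1 changed by -4.53% in the control tree and by 5.56% in the defoliated tree. From highest to lowest, its levels ran control -27, control -20, control +5, stress +5, stress -20 and stress -27. The steps down from control -20 (0.52) and from control +5 (0.53) were larger than the residual SD of the test of stress against control (0.25). The step from stress +5 to stress -20 (0.16) was not. That SD includes differences between the leaf axils of a tree. In the test of the difference of treatment effects, with the spread from the early leaf axils, the residual SD of IAA1 was 0.11. The step of 0.16 was larger than that.

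AHP1, the cytokinin phosphotransfer gene, had similar levels in all 6 libraries. Its FPKM in control was 18.0 at leaf axil -27, 16.0 at -20 and 20.4 at +5, and under stress 19.9, 21.3 and 16.2. The treatments overlapped, and the highest library (stress -20) had 1.33 times the FPKM of the lowest (control -20). The SD over the 6 libraries was 0.17 on the log2 scale, and 12.8% of tested records had a lower one.

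The sign of the AHP1 difference between treatments was not the same at all leaf axils. Stress exceeded control by 10.8% at -27 and by 33.0% at -20, and at +5 the stress library was lower, with a change of -20.5%. This order of signs was shared by 11.5% of tested records. Over the 3 leaf axils, the mean FPKM was 18.1 ± 2.21 in control and 19.2 ± 2.61 under stress (SD, n = 3 leaf axils each). The log2 fold change was 0.07 (standard error 0.16, 95% interval -0.31 to 0.45, adjusted p = 0.830 from limma), and it turned to -0.01 without the control library at -20 and to -0.0042 without the stress library at -20. Without the control library at +5, which stood apart, it was 0.16. The treatment difference at +5 was 0.58 lower than at the early leaf axils (log2 difference -0.58, standard error 0.21, 95% interval -1.07 to -0.09), with an unadjusted p of 0.0262 and an adjusted p of 0.147 from limma. As for IAA1, these errors come from the early leaf axils alone, those of AHP1 and, through limma, of all tested records. An unadjusted p under 0.05 was reached by 24.3% of tested records in this test.

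Along the leaf axils, AHP1 had 1.20 times its early mean at +5 in the control tree and 0.788 times in the defoliated tree. The combined log2 fold change of +5 against the early leaf axils was -0.04 (standard error 0.16, 95% interval -0.42 to 0.35, adjusted p = 0.918 from limma). It was -0.33 without the control library at +5, 0.25 without the stress library at +5 and 0.02 without the stress library at -20. Between -20 and -27 the value of AHP1 changed by -11.1% in the control tree and by 6.67% in the defoliated tree. None of the 5 steps in the order of its levels (at most 0.14) was larger than its residual SD in the test of stress against control (0.20). That SD includes differences between the leaf axils of a tree. In the test of the difference of treatment effects, with the spread from the early leaf axils, the residual SD of AHP1 was 0.12. The steps from stress -27 to control -27 and from control -27 to stress +5 (each 0.14) were larger than that. At +5, both centring on library medians and quantile normalization brought the stress minus control difference from -0.31 to -0.17.

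GSK, the kinase gene, was higher under stress at all 3 leaf axils by a small amount and lower at +5 than at the early leaf axils in both trees. Its FPKM in control was 66.8 at leaf axil -27, 71.2 at -20 and 47.7 at +5. Under stress it was 83.7, 82.6 and 62.4 in the same order. The treatments overlapped, since the stress library at +5 lay below both early control libraries. The stress libraries exceeded control by 25.3% at -27, 16.0% at -20 and 30.9% at +5, and 20.8% of tested records were likewise higher at all 3 leaf axils. Neither GSK nor AHP1 was at least 2-fold higher under stress at any leaf axil, where 2.65% of tested records were so at -27, 2.55% at -20 and 5.92% at +5.

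The mean FPKM of GSK was 61.9 ± 12.5 in control and 76.3 ± 12.0 under stress (SD, n = 3 leaf axils each). The log2 fold change of 0.30 (standard error 0.22, 95% interval -0.20 to 0.81) did not pass the test, with an adjusted p of 0.451 from limma. Without the control library at +5 it was 0.13. The interval reaches from a slight fall to a rise below the 2-fold limit. The treatment difference at +5 was 0.12 above that at the early leaf axils (standard error 0.19, 95% interval -0.32 to 0.55, adjusted p = 0.749 from limma, with the spread again from the early leaf axils). With quantile normalization, the stress minus control difference at +5 was 0.66 in place of 0.38.

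Leaf axil +5 had 0.691 times the early mean FPKM of GSK in the control tree and 0.751 times in the defoliated tree. A lower value at +5 than at either early leaf axil in both trees was found for 35.4% of tested records. The log2 fold change of +5 against the early leaf axils was -0.47 (standard error 0.12, 95% interval -0.76 to -0.17), with an unadjusted p of 0.00733 and an adjusted p of 0.0696 from limma. This missed the threshold, which 1.45% of tested records passed in this test. An unadjusted p under 0.05 was reached by 4782 of 18728 tested records in the same test. Without the treatment as covariate the interval was -0.93 to 0.0012 and the adjusted p 0.322. With 1 library left out, the value lay between -0.52 and -0.41, and the adjusted p between 0.0337 without the stress library at +5 and 0.212 without the control library at -20. Between -20 and -27, GSK changed by 6.63% in the control tree and by -1.25% in the defoliated tree. In the order of its levels, only the step from stress +5 down to control +5 (0.38) was larger than its residual SD in the test of stress against control (0.26). That SD includes the fall at +5. In the test of +5 against the early leaf axils the residual SD of GSK was 0.14. The step from stress -20 to control -20 (0.21) was larger than that too.

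**Figure D3:**
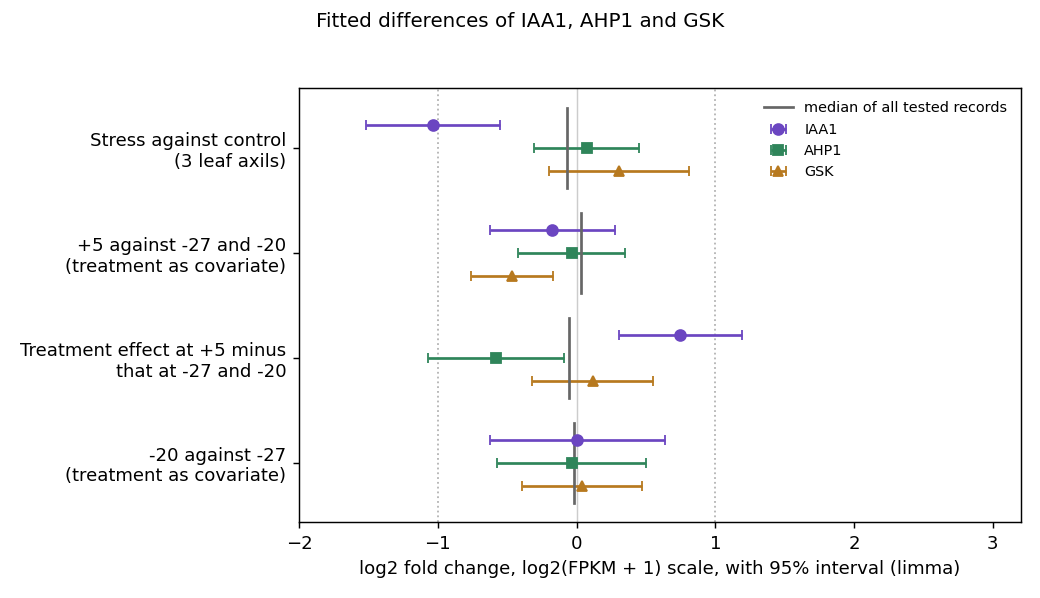
Log2 fold changes from limma for IAA1 (circles), AHP1 (squares) and GSK (triangles) in 4 comparisons, with bars for the 95% interval, grey ticks for the median of all tested records and dotted lines at a 2-fold change. The intervals of IAA1 for stress against control (-1.51 to -0.55) and of GSK for +5 against the early leaf axils (-0.76 to -0.17) lie below 0. For the difference of treatment effects, that of AHP1 (-1.07 to -0.09) lies below 0 and that of IAA1 (0.31 to 1.19) above it. Such intervals exclude 0 where the unadjusted p from limma is under 0.05. Of 18728 tested records, 4191 reached this for stress against control, 4782 for +5 against the early leaf axils and 4549 for the difference of treatment effects. None of the 12 values passed the threshold on the adjusted p.

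For leaf axil -20 against -27, with the treatment as covariate, the log2 fold change was 0.01 for IAA1 (95% interval -0.63 to 0.64), -0.04 for AHP1 (-0.57 to 0.50) and 0.04 for GSK (-0.40 to 0.47). Of all tested records 0 passed the threshold in limma (0%), and 189 had an unadjusted p under 0.05. The early leaf axils were thus not separable for these genes in this test with 2 libraries each, and the intervals allow differences of up to 0.64 in size. The fit also held the +5 libraries, so its residual SD includes any change of the treatment difference at +5. That SD was 0.25 for IAA1, 0.22 for AHP1 and 0.17 for GSK. In the test of the difference of treatment effects, with the spread from the early leaf axils, it was 0.11, 0.12 and 0.11. The intervals and the count of 189 therefore do not measure the spread of the early libraries alone.

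FPKM is scaled for gene length, so levels can also be set side by side between genes. In control, the FPKM of IAA1 was 2.03, 1.82 and 1.89 times that of GSK at leaf axils -27, -20 and +5. Under stress it was 0.627, 0.670 and 0.992 times that of GSK. IAA1 was thus above GSK in the 3 control libraries and at or below it in the 3 stress libraries. AHP1 had the lowest FPKM of the 3 genes in all 6 libraries. Both IAA1 and GSK exceeded at least 95.4% of tested records in every library, and AHP1 exceeded between 81.7% and 87.9%.

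**Figure D4:**
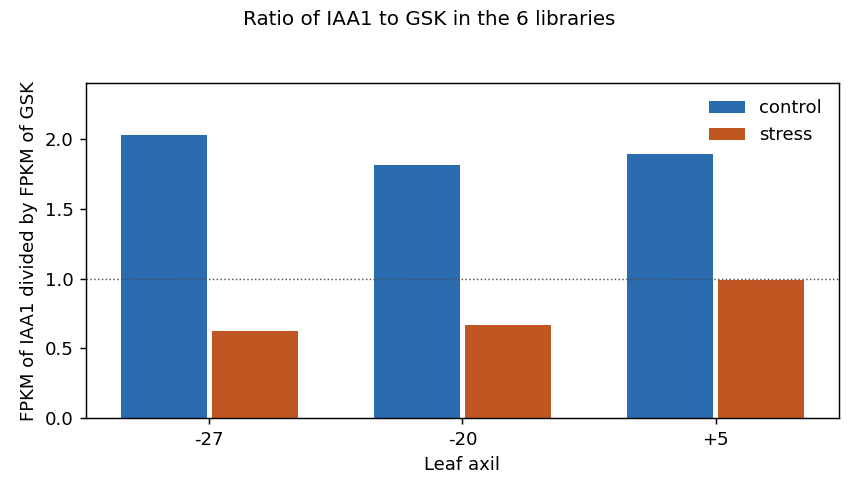
FPKM of IAA1 divided by that of GSK (bars from 0, no error bars since each is 1 library) by leaf axil in control and stress, with a dotted line at equal FPKM. The ratio lies between 1.82 and 2.03 in the 3 control libraries and between 0.627 and 0.992 in the 3 stress libraries.

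Few other hormone genes carry a name in the table. The symbol list drawn up for auxin, cytokinin and brassinosteroid genes found 5 records with the synonyms of RefSeq, the 3 genes above, DRM and LOC105061558. LOC105061558 matched only by its synonym ARP, which the table does not spell out, so its place among hormone genes is uncertain. All 5 were tested, and none passed the threshold in any of the 4 comparisons, which between 0% and 1.45% of all tested records passed. DRM, a dormancy and auxin associated gene, had an FPKM of 7.53, 20.1 and 48.4 in the control libraries of leaf axils -27, -20 and +5. Its stress libraries had 39.1, 123 and 1048, and the log2 fold change of 3.07 had an adjusted p of 0.185 from limma. For LOC105061558 the control libraries had 133, 198 and 140 and the stress libraries 388, 456 and 460, a log2 fold change of 1.48 with an adjusted p of 0.0308. Of the 4 records matched by symbol, DRM and GSK were thus higher under stress at every leaf axil, IAA1 lower and AHP1 of mixed sign. The median log2 fold change of all tested records was -0.07.

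The records with the most similar pattern were found by Pearson's r across the 6 libraries, which share the 2 trees, on the log2(FPKM + 1) scale among records with an SD of at least 0.25. For IAA1 they were LOC105061538, LOC114914557 and LOC105059279, each with r of 0.997, and 181 of 12287 records reached an r of 0.95. LOC114914557 had an FPKM of 19.8, 20.2 and 15.1 in control and 10.6, 10.5 and 11.5 under stress. For AHP1 the nearest were LOC105053969 (r = 0.992), LOC105052323 (r = 0.954) and LOC105048211 (r = 0.952), and these 3 of 12288 records were all that reached 0.95. The SD of AHP1 itself (0.17) is under the limit of 0.25, so records as flat as AHP1 were not searched. Its count is therefore not comparable with those of IAA1 and GSK. LOC105053969 had 3.53, 2.77 and 4.93 in control and 4.72, 5.02 and 2.95 under stress. For GSK they were LOC105058365 (r = 0.996), LOC105053041 (r = 0.995) and LOC105050784 (r = 0.994), and 160 of 12287 records reached 0.95. LOC105053041 had 96.0, 108 and 56.6 in control and 137, 125 and 89.6 under stress. The table pairs these identifiers with no gene names, and r over 6 libraries describes likeness in these trees only.

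In the gene table of the newer oil palm assembly EG11, no other gene overlapped IAA1, AHP1 or GSK, and the 3 genes did not neighbour each other. The nearest tested gene on either side was compared for stress against control. Of these 6 neighbours 0 passed the threshold, with adjusted p values between 0.107 and 0.979 from limma. Of all tested records 0.529% passed it, so a count of 0 among 6 says little about the neighbours. Beside IAA1, the neighbours LOC105038794 and LOC105039096 had log2 fold changes of 0.70 and -0.15, against -1.03 for IAA1 itself.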

How the data were processed

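RNA-seq libraries from 6 inflorescences were checked by the authors with FastQC, left untrimmed, aligned with HISAT2 (v2.1.0) to the oil palm genome and quantified with StringTie (v1.3.4). The deposited table used here holds the authors' FPKM per gene record. Counts were not analysed here, so limma on log2(FPKM + 1) replaced the DESeq2 test of the study's methods. Absolute depth was not used here. FPKM steps give relative depth only, so no counting interval was computed.

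Records that reached an FPKM of 1 in 3 or more libraries were tested with limma 3.58.1 in R 4.3.3 (eBayes with a mean-variance trend, Benjamini-Hochberg adjustment), with an adjusted p under 0.01 and a 2-fold change as threshold. The treatment test had no covariate. Treatment was a covariate in the axil tests, and 4 cell means gave the difference of treatment effects. Code was tested on simulated data. Leaf axil pairs the libraries of both trees per the labels, and deviations from treatment means correlated across records with r = 0.211 (-27), 0.344 (-20) and 0.409 (+5). Pairwise differences of libraries have no test.

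Named records were the 3 genes, the symbol list and, for each gene, the 3 records with the highest r. Genes and lists were chosen with earlier results of these data known. Families by protein motif were planned and not run, as protein sequences were not used here. Symbols and neighbours came from RefSeq EG11, which matched 89.3% of records by symbol and differs from the authors' assembly, so no coordinates are given. Other steps used Python 3.11.15, pandas 2.3.3 and scipy 1.17.1.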

Additional observations from a re-analysis of the deposited data

How the results depend on the processing

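None of the 12 tests of IAA1, AHP1 and GSK passed the threshold in its main form or in any of 114 refits with another pseudocount, filter, scaling, variance prior or covariate, or with a library left out. Direction was kept in 109 of these refits and turned in 5, all with a library left out. A changed filter, variance prior, block or covariate cannot move these log2 fold changes, so refits of those kinds could not turn direction. The range with a library left out was -0.010 to 0.18 for AHP1 under stress against control (negative without control -20 or stress -20). For +5 against the early leaf axils it was -0.55 to 0.20 for IAA1 (positive without control +5) and -0.33 to 0.25 for AHP1 (positive without stress +5 or stress -20). The cause was not tested. With libraries paired by leaf axil in a replicate block, the log2 fold changes of stress against control are by construction the same, -1.03, 0.07 and 0.30 for IAA1, AHP1 and GSK. Their adjusted p values from limma were 0.0538, 0.825 and 0.236, so the block changed no call at 0.01 and IAA1 was no longer under 0.05. Leaving out the covariate cannot move the log2 fold changes of +5 against the early leaf axils (-0.18, -0.04 and -0.47). It raised the standard error of IAA1 from 0.19 to 0.46 and the adjusted p of GSK from 0.0696 to 0.322.

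The number of records past the threshold depended more on the settings. For stress against control it was 99, and 7 without a filter, 32 at a mean FPKM of at least 5, 32 with the replicate block and between 0 and 89 with a library left out. For +5 against the early leaf axils it was 272, and 1 without a filter, 171 at a mean FPKM of at least 5, 3 without the covariate and between 0 and 1204 with a library left out. For the difference of treatment effects it was 92, and 31 after centring on medians and 0 without a trend in the variance prior (4353 at an unadjusted p under 0.05). Leaving out libraries was not run for this test or for -20 against -27, which have 2 residual degrees of freedom. Of 27 differences between 2 libraries, each under 3 alternatives, 16 of 81 values moved by more than the residual SD of the fit over 4 cell means, as moderated by limma. All were in pairs with a +5 library.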
